A study of Drosophila melanogaster with 6 samples.

Results

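The cytosolic ribosomal protein genes encode the protein components of the ribosome outside mitochondria, and 48 of the 93 such genes in the fly annotation were present in a table of 3326 genes that differed between domino knockdown and control neural cells. Members were genes with a symbol that starts with RpL or RpS, plus sta and the genes formerly named sop and oho23B, which are now RpS2 and RpS21. Genes of the mitochondrial ribosome, mRpL and mRpS, were left out. By symbol, 54 of the 93 members were assigned to the large and 39 to the small subunit. A symbol alone does not show that a protein is part of the ribosome. RNA had been sequenced from GFP-positive, propidium iodide-negative cells sorted from brains of wandering Drosophila melanogaster larvae reared at 25C. There were 3 wild type libraries, from females that carried UAS::Dcr-2 as well as insc::Gal4 and UAS::CD8-GFP, mated to w1118 males, and 3 dom knockdown libraries, for which the males were w1118; UAS::dom-RNAi. Both genotypes therefore carried the Dcr-2 transgene, which strengthens RNA interference, the insc-Gal4 driver of neuroblasts and their progeny, and the membrane GFP by which cells were sorted. Whether a genotype's libraries derive from different larvae is not stated in the labels, and p-values may then reflect technical spread alone.

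A ribosome joins a large subunit, which forms peptide bonds, and a small subunit, which reads the messenger RNA. Nearly every ribosomal protein is needed once per ribosome, so its messengers are among the most abundant of growing cells. Flies with a single working copy of many of these genes develop slowly and have thin bristles, the Minute phenotype. Most fly ribosomal proteins come from 1 gene, and some have a second gene that is often active mainly in the germline. Neuroblasts, the stem cells of the larval brain, grow and divide many times, and domino (dom) encodes an ATPase that remodels nucleosomes.

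For each gene the authors' deposited table held a mean normalized count over the 6 libraries, a log2 ratio, its standard error (SE) and a DESeq2 adjusted p, and it held only genes with an adjusted p below 0.05. It held no value of a single library, so neither the depth of a library nor overlap between the groups can be given. All log2 ratios below are knockdown over wild type, with the sign turned because the header names the control first. The target itself, dom (FBgn0020306, dm6 2R:21323430-21341847), had a log2 ratio of -0.58 (SE 0.11, DESeq2 adjusted p 7.88e-07) per the authors' deposited table. Because dom was used to check the sign, it does not check the labels as well, and its knockdown level may include hairpin reads. The eye colour gene w, of which most fly transgenes carry a copy as a marker, was higher at a log2 ratio of 1.32 (SE 0.13, DESeq2 adjusted p 1.78e-21) per the authors' deposited table. The part of the added UAS::dom-RNAi transgene in this ratio was not tested. Dcr-2, a transgene of both genotypes, was not level between them, at 0.90 (SE 0.23, 1.87-fold, adjusted p 5.36e-04) per the authors' deposited table, and its part in the ratios below was not tested. If the header order meant the reverse, every direction here would swap. The table counted 28.0% of 11859 tested genes as changed, 13.9% as higher and 14.2% as lower. Genes outside it missed the threshold or were left untested, and their ratios are unknown.

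In dom knockdown cells 48 ribosomal protein genes rose and 0 fell, per the authors' deposited table. That was 51.6% of the 93 members, beside 13.9% of all tested genes called higher. By subunit, 31 of 54 large and 17 of 39 small subunit genes were listed. With the stricter adjusted p of 0.01, 32 members were higher, beside 9.36% of all tested genes. Abundant genes have small errors and pass a threshold more easily. The abundance of genes that were not listed is unknown, so the share of members could not be set against genes of equal abundance. The members share 6 libraries and 1 normalization, so their ratios are not independent of each other.

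Of the members not listed, 5 (RpL19, RpL27A, RpL31, RpS10b and RpS12) carry identifiers numbered above every identifier of the table, so they could be in it only under an older identifier. The table held 62 identifiers that no name table matched. Of these, 5 lay in the range of means of the abundant members, and 4 of the 5 had a log2 ratio inside the range of those members. The remaining 40 members were not listed, among them RpL3, RpL8, RpS2, RpS3, RpS9 and sta. The stalk base RpLP0, the ubiquitin fusion genes RpL40 and RpS27A, and RpS21 were not listed either. Leaving out the 5 newer identifiers, 54.5% of 88 members were listed and higher.

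The listed members formed an abundant group of 45 genes and a rare group of 3. Mean normalized counts of the abundant genes ran from 30846 for RpL37A to 139471 for RpL4 per the authors' deposited table. The rare group, RpS10a, RpL37-2 and RpL22-like, had means of 48.7, 13.9 and 8.03 there, and each is a second gene for a protein that another gene also encodes. A split at a mean of 1000 separated them, and no listed member lay between RpS10a, the nearest below it, and RpL37A, the nearest above. The abundant genes ranked between 7 and 134 by mean among the 3326 listed genes and held 15.7% of the summed means. They had 30522 to 159235 mean normalized counts per kb of exon, lowest for RpL5 and highest for RpL39.

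**Figure D1:**
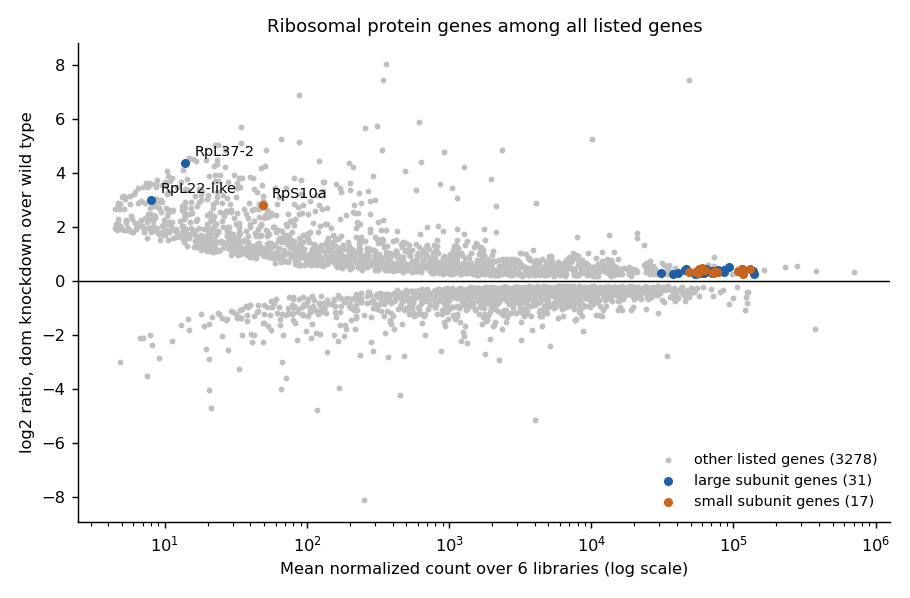
Log2 ratio (knockdown over wild type) against the mean normalized count over 6 libraries on a log axis for all listed genes; blue points are large and orange points small subunit genes. The 45 abundant members sit in a narrow band above 0 between 30846 and 139471, and the 3 rare copies lie far to the left with ratios from 2.83 to 4.36.

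The 45 abundant genes were higher by similar amounts. Their log2 ratios ran from 0.25 to 0.54 per the authors' deposited table, and their median was 0.35, a level 1.28-fold that of the wild type. The SD over the 45 ratios was 0.065, below the median standard error of a single gene, 0.099. Smaller ratios could not be listed, so the SD may be narrower than over all members. The 95% interval of each of the 45 genes included the median, that of RpL15 with its lower end next to it. These errors describe knockdown against wild type and not the gap between members measured in the same 6 libraries. Whether any gene differed from the middle of the group was not tested. The 29 large subunit genes had a median of 0.35 and the 16 small subunit genes 0.34. Summed over the 45 genes, the levels implied by each mean and ratio were 28.6% higher in the knockdown, if ratios were not shrunken and both genotypes weigh equally in the mean.

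The table itself bounded the range from below. The smallest absolute Wald statistic listed was 2.46, so the smallest ratio that could be listed was 0.19 to 0.30 for these genes, depending on the error. Of the 45 genes, 24 lay under 1.5 times that limit. RpL35 was nearest, with a log2 ratio of 0.25 (SE 0.10, DESeq2 adjusted p 0.0492) per the authors' deposited table, and RpS23 followed at 0.30 (SE 0.12, adjusted p 0.0465). Members that were not listed could have had ratios just under it. The median of listed genes is therefore no estimate for all members.

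**Figure D2:**
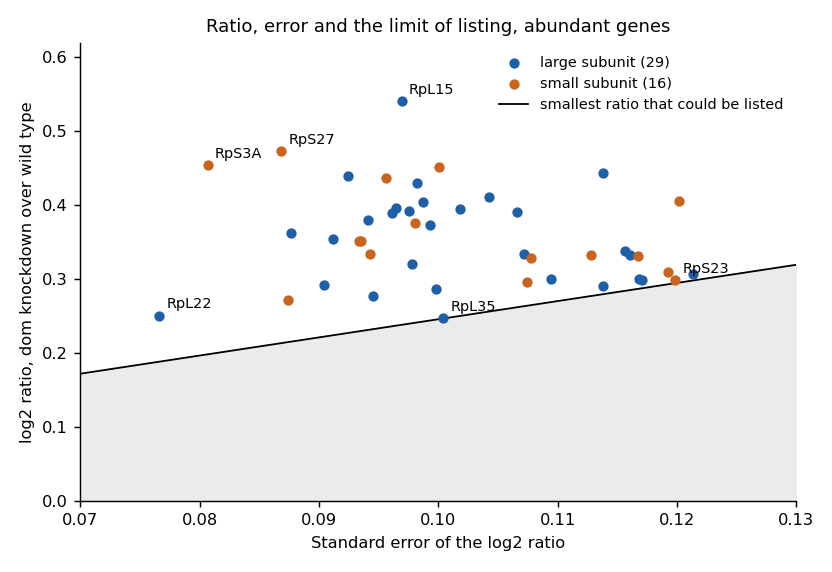
Log2 ratio against its standard error for the 45 abundant members; the line marks the smallest ratio that could be listed and the shaded area holds values that could not be in the table. RpL35 and RpS23 lie next to the line, and RpL15, RpS3A and RpS27 lie farthest above it.

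Among the large subunit genes, RpL15, which encodes a protein of the ribosome's core, stood highest of the abundant members. Its log2 ratio was 0.54 (SE 0.10, DESeq2 adjusted p 4.62e-07) per the authors' deposited table, 1.46-fold with a 95% interval of 1.28 to 1.66. RpL15 (3L:27267255-27268445) lies close to the centromere, with its nearest protein-coding neighbour 10871 bp away. RpL36A and RpL10 followed with ratios of 0.44 and 0.44 (SE 0.11 and 0.09) per the authors' deposited table. The RpL10 protein joins the large subunit late, near the peptidyl transferase centre. RpL18 had 0.43 (SE 0.10) per the authors' deposited table. At the other end, besides RpL35, were RpL22 at 0.25 (SE 0.08) and RpL4 at 0.28 (SE 0.09) per the authors' deposited table. RpL22 had the smallest error of the members, and 34.3% of its exon bases are shared with another annotated gene.

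Genes for proteins that work together in the large subunit were described next. RpL5 and RpL11, which bind 5S ribosomal RNA and enter the subunit as one particle, had log2 ratios of 0.41 (SE 0.10) and 0.37 (SE 0.10) per the authors' deposited table. The acidic stalk proteins, which draw translation factors to the ribosome, are encoded by RpLP1 and RpLP2. These genes had ratios of 0.40 and 0.40, with errors of 0.10 and 0.10 and DESeq2 adjusted p of 3.61e-04 and 3.51e-04 per the authors' deposited table. RpL12, whose protein lies at the stalk base, had 0.39 (SE 0.11) per the authors' deposited table, while RpLP0 was not listed. Around the tunnel through which new protein leaves, RpL4, RpL17 and RpL39 had 0.28, 0.39 and 0.40, and RpL26 and RpL35 at its exit 0.39 and 0.25 per the authors' deposited table.

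The other large subunit genes filled the range between. RpL7A, RpL28 and RpL7 had log2 ratios of 0.38, 0.36 and 0.35 per the authors' deposited table. RpL13A, RpL27 and RpL36 had 0.34, 0.33 and 0.33 per the authors' deposited table. RpL37A, RpL32, RpL35A, RpL13, RpL24, RpL21 and RpL37-1 had ratios between 0.29 and 0.31 per the authors' deposited table, with DESeq2 adjusted p from 0.00665 for RpL24 to 0.0428 for RpL37A. RpL32, long known as rp49, is a common reference gene for quantitative PCR in flies. It was 1.23-fold higher here, with a 95% interval of 1.05 to 1.44 and a DESeq2 adjusted p of 0.0383 per the authors' deposited table. Exon bases shared with a gene on the opposite strand made up 21.6% of RpL24 and 19.7% of RpL37A, and without a stated strand setting reads there cannot be told apart.

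Small subunit genes were led by RpS27, with a log2 ratio of 0.47 (SE 0.09, DESeq2 adjusted p 9.09e-07) per the authors' deposited table. RpS3A was next at 0.45 (SE 0.08), with the smallest adjusted p of the abundant members, 3.63e-07 per the authors' deposited table. It is the one member on chromosome 4 (4:65225-67207), a small and mostly heterochromatic chromosome. RpS28b and RpS6 had 0.45 and 0.44 (SE 0.10 and 0.10) per the authors' deposited table. RpS6 is the protein that S6 kinase phosphorylates when growth signals are on, and 16.9% of its exon bases are shared with another gene. RpS19a and RpS5a had 0.41 and 0.38 per the authors' deposited table.

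The other small subunit genes lay lower. RpS16 and RpS15, in the head, both had a log2 ratio of 0.35 (SE 0.09) per the authors' deposited table. RpS7, RpS14a and RpS18 all had 0.33 and RpS26, which lies where messenger RNA leaves the subunit, 0.31 per the authors' deposited table. RpS23, a protein of the decoding centre, and RpS15Aa had 0.30 each, and RpS4 had the least, 0.27 (SE 0.09, DESeq2 adjusted p 0.00964) per the authors' deposited table.

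**Figure D3:**
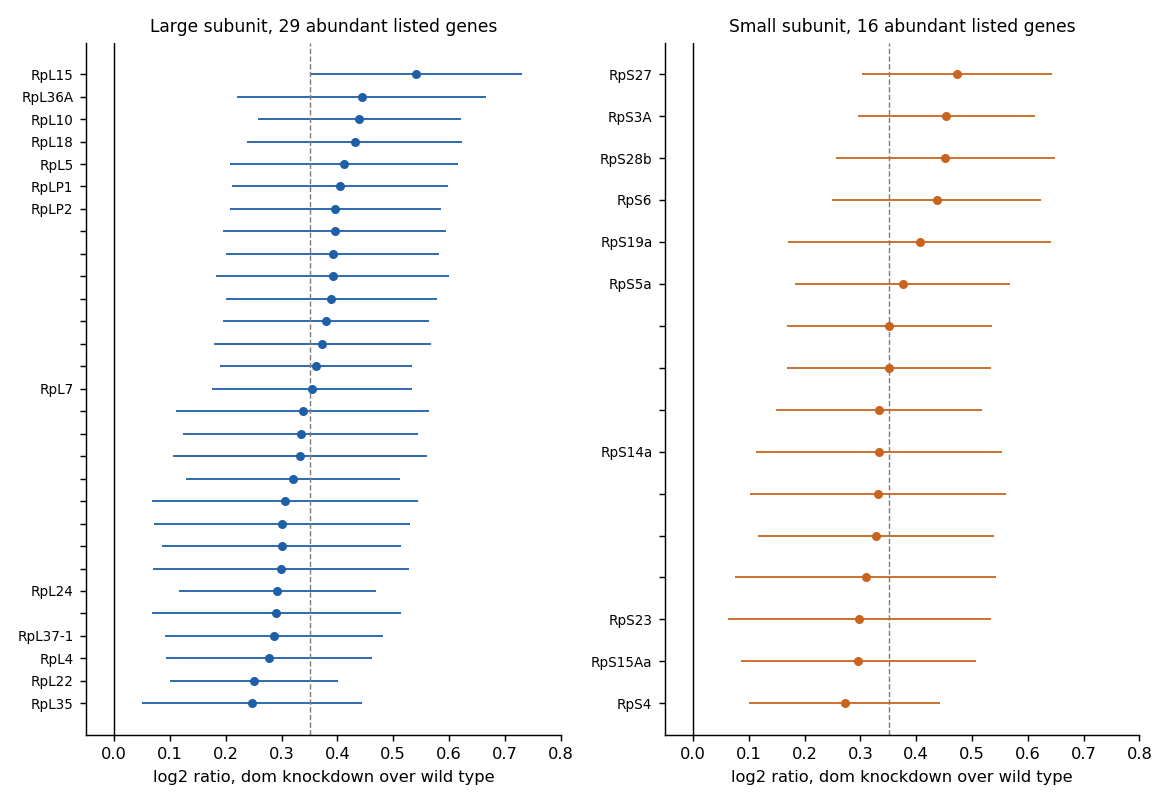
Log2 ratio (knockdown over wild type) with its 95% interval from the deposited standard error for the 29 large (left) and 16 small (right) subunit genes of high abundance; the dashed line is their median, 0.35, and the genes at either end, copies and stalk genes carry names. Every interval crosses the dashed line, from RpL35 at 0.25 to RpL15 at 0.54. All lie above 0, which the threshold of the table fixes for any gene listed as higher.

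In 13 cases a ribosomal protein had more than 1 gene by symbol, 27 genes in all, and the other 66 members were single genes. Of the 66, 36 were listed, beside 28.0% of all tested genes. Of the 27, 12 were listed, from 10 families. Where they came from an abundant gene, the ratios were like those of the other members, as with RpS5a, RpS14a, RpS15Aa, RpS19a, RpS28b, RpL7 and RpL24. Their counterparts RpS5b, RpS14b, RpS15Ab, RpS19b, RpS28a, RpS28-like, RpL7-like and RpL24-like were not listed. No gene of RpL10A, RpL34 or RpLP0 was listed. RpL7-like, RpL24-like and RpLP0-like resemble yeast factors that help assemble the large subunit. They are grouped here by symbol alone and may not be second copies of those proteins, but the counts of families and members include them. RpS14a and RpS14b lie 220 bp apart on X in tandem and encode the same protein. Reads could be split between such copies or lost, and how they were counted is not given in the sources used here.

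RpL37-2 had the largest ratio of all members. Its log2 ratio was 4.36 (SE 0.72, DESeq2 adjusted p 3.98e-08) per the authors' deposited table, 20.6-fold with a 95% interval of 7.70 to 55.1. The mean and ratio imply 1.29 normalized counts in the wild type and 26.6 in the knockdown. RpL37-1, the abundant gene for the same protein, was 1.22-fold higher (log2 0.29, SE 0.10) per the authors' deposited table. RpL37-2 minus RpL37-1 was 4.08 on the log2 scale, with a 95% interval of 2.65 to 5.51 that treats their errors as independent. At the error of RpL37-2, only a log2 ratio of at least 1.78 in size could be listed. Any listed rise of RpL37-2 thus had to exceed that of RpL37-1, so part of this gap was fixed by the listing. Per kb of exon the implied level of RpL37-1 was still 781 times that of RpL37-2 in the knockdown, against 13198 times in the wild type.

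RpL37-2 (2R:23100057-23100478) lay among other rare genes that were higher. Within 20 kb of it 10 genes are annotated, of which 5 were listed and all 5 higher per the authors' deposited table. Of all tested genes 28.0% were listed and 13.9% higher. They were Gr59d and Gr59c, which encode gustatory receptors, at log2 ratios of 6.91 and 5.04, lncRNA:CR44781 at 5.13, CG42703 at 3.84 and CG9876 at 3.51 per the authors' deposited table. Their means were 11.1 to 87.7 there, against 13.9 for RpL37-2. The nearest, CG42703, is 754 bp away.

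RpL22-like, the second gene for the RNA-binding protein RpL22, is known from the fly germline, above all the testis. Its log2 ratio was 3.02 (SE 0.71, DESeq2 adjusted p 2.18e-04) per the authors' deposited table, 8.09-fold with a 95% interval of 3.07 to 21.3. The implied levels were 1.77 normalized counts in the wild type and 14.3 in the knockdown. RpL22-like minus RpL22 was 2.77, with a 95% interval of 1.36 to 4.17. At the error of RpL22-like, only a log2 ratio of at least 1.75 in size could be listed. Any listed rise of RpL22-like thus had to exceed that of RpL22, so part of this gap was fixed by the listing. RpL22-like (2R:23246610-23247893) had no listed gene among the 3 annotated within 20 kb, beside 28.0% of all tested genes listed. It lies 146131 bp further along the same arm than RpL37-2.

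RpS10a was the best measured of the rare copies. Its log2 ratio was 2.83 (SE 0.36, DESeq2 adjusted p 1.36e-13) per the authors' deposited table, 7.12-fold with a 95% interval of 4.38 to 11.6, from an implied 12.0 to 85.3 normalized counts. RpS10a (3R:27652760-27653363) overlaps the span of tau, which was not listed. Of 9 genes within 20 kb, Tusp was the 1 listed, beside 28.0% of all tested genes listed and 14.2% lower. Tusp was lower (log2 -0.46, SE 0.19) per the authors' deposited table. The abundant copy RpS10b has a newer identifier, so it could not be compared. Of the germline genes, bam and aub were not listed, vas has an identifier newer than the table, and nos was not matched. The summed mean of the 3 rare copies was 70.6 normalized counts, against 3432530 for the 45 abundant genes.

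**Figure D4:**
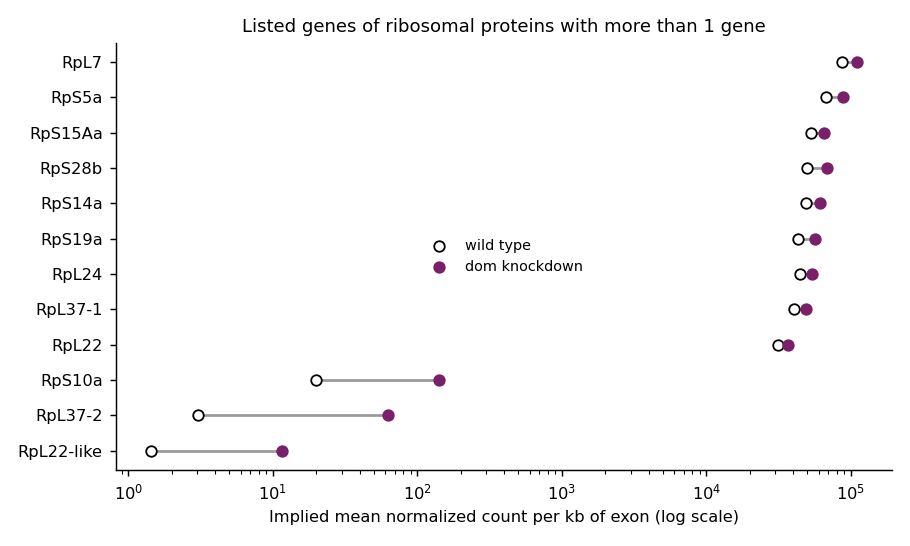
Implied mean normalized count per kb of exon, on a log axis, in wild type (open) and dom knockdown (filled) for the 12 listed genes of proteins with more than 1 gene; levels are computed from the deposited mean and ratio and have no error bar. The 9 abundant genes move little, and RpS10a, RpL37-2 and RpL22-like move by 7.12-fold, 20.6-fold and 8.09-fold at far lower levels.

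Other listed genes in the same range of abundance were more often lower than higher. Of 83 other listed genes with means in the range of the abundant members, 29 were higher and 54 lower per the authors' deposited table, with a median log2 ratio of -0.29. Their median standard error was 0.10, like that of the members. The 83 included the 5 unnamed identifiers, of which 4 were higher. Named genes among them with a log2 ratio inside the range of the abundant members numbered 15. Over all 3326 listed genes the median log2 ratio was -0.20. No test was made of the members as a group.

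Members were spread over the genome, and listed ones were found on all arms that hold any. On X 12 of 15 members were listed, on 3L 7 of 14, on 2R 11 of 21, on 2L 9 of 19 and on 3R 8 of 23. Of all tested genes 28.0% were listed, and the share of tested genes listed on each arm is unknown. Whether the arms differ was not tested. Genes with a single copy made up 15 of the 23 on 3R, of which 7 were listed, and 6 of the 15 on X, of which 5 were listed. Median log2 ratios of the abundant members ran from 0.31 on 2L to 0.39 on 3L, besides the 0.45 of RpS3A on chromosome 4. The medians of 2L and 3L differ by less than the median error of a single gene, which is no error of that difference. Over all listed genes, 49.8% were higher on X and 45.7% on 3R.

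Neighbouring genes moved in both directions. The nearest protein-coding gene that is no member lay a median 306 bp away, and it was listed for 14 of the 48 members, 29.2%, close to the 28.0% of all tested genes. Of the 14, 8 were higher and 6 lower per the authors' deposited table. Mybbp1A, 290 bp from RpL36, had a log2 ratio of -0.44 (SE 0.12), and Nup37, 144 bp from RpS27, had 0.40 (SE 0.14) per the authors' deposited table. RpL12 and RpL39 overlap by 8 bp on opposite strands on 2R and had near-equal ratios.

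Listed and other members were also set side by side for gene structure. The 45 abundant listed genes had a median exon length of 987 bp and a median 5' UTR of 84 bases, against 859 bp and 56 bases in the 40 that were not listed. The 40 include second copies and genes named -like, while the rare listed copies were left out of the 45. Listing and copy type thus cannot be told apart in these values. Genes for small nucleolar RNAs, which guide modification of ribosomal RNA and are often cut from introns of ribosomal protein genes, lay inside 16 of the 45 and 11 of the 40. RpS5a held 14 of them. Of the 269 annotated small nucleolar RNA genes, 6 were listed, beside 28.0% of all tested genes, and 0 of those 6 lay inside a member. How many of the 269 were tested is unknown, so these counts do not show that the others were unchanged.

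Genes of the mitochondrial ribosome were rarely listed. Of 73 mRpL and mRpS genes 3 were listed, 0 higher and 3 lower, beside 13.9% and 14.2% of all tested genes. They were mRpL30, mRpL37 and mRpL51, with log2 ratios of -0.57, -0.53 and -0.40 (SE 0.12, 0.10 and 0.14) per the authors' deposited table. Their means were 867 to 2591 there, far below those of the cytosolic genes. Of the 73 genes, 2 carry newer identifiers.

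Translation factors were listed in both directions. Of 28 initiation genes 4 were listed (14.3%), 3 higher and 1 lower, beside 28.0% of all tested genes listed, 13.9% higher and 14.2% lower. eIF6, which keeps the subunits apart until the large one is mature, had a log2 ratio of 0.67 (SE 0.13, DESeq2 adjusted p 2.98e-06) per the authors' deposited table. eIF2beta and eIF3g1 were higher at 0.33 and 0.28 and eIF4H1 lower at -0.25 per the authors' deposited table. Among 10 genes of elongation and termination 2 were listed. eEF1delta was higher at 0.31 (SE 0.10), and eEF1alpha2, a form of the factor that brings transfer RNA, was lower at -1.06 (SE 0.18) per the authors' deposited table. In this list 2 genes carry newer identifiers, so these counts are minimums.

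In the ribosome biogenesis list 7 of 34 genes were listed (20.6%), 1 higher and 6 lower, beside 28.0% of all tested genes listed, 13.9% higher and 14.2% lower. The share lower is thus near that of all tested genes, and the 6 include a gene, pes, that does not make ribosomes. The higher one was eIF6. Polr1A, the large subunit of RNA polymerase I, which transcribes ribosomal RNA, had a log2 ratio of -0.30 (SE 0.12), Mybbp1A -0.44 and the helicase gene pit -0.32 per the authors' deposited table. Nop17l and Nlp had -0.43 and -0.39 per the authors' deposited table, and Nlp encodes a nucleoplasmin that binds histones. The gene pes (log2 -0.86) encodes a scavenger receptor and no nucleolar protein. Fib, Nop56, nop5 and Nopp140, which encode nucleolar proteins, were not listed. The symbols ns1, ns2, ns3 and ns4 of this list were not matched, so their status is unknown.

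Growth signalling genes changed in both directions. In the TOR and S6 kinase list, 8 of 15 genes were listed (53.3%), 2 higher and 6 lower, beside 28.0% of all tested genes listed, 13.9% higher and 14.2% lower. Thor, which encodes the translation inhibitor 4E-BP, had a log2 ratio of 1.33 (SE 0.19, DESeq2 adjusted p 1.54e-10), and the kinase gene Pdk1 had 0.53 (SE 0.10) per the authors' deposited table. The RNA-binding protein gene larp, whose mammalian relative binds ribosomal protein messengers, was lower at -0.51 (SE 0.06, adjusted p 1.05e-13) per the authors' deposited table. The TOR partner gene raptor and gig, which encodes a TOR inhibitor, were lower at -0.36 and -0.49 per the authors' deposited table. The other 3 lower genes had ratios between -0.29 and -0.25 there. S6k and InR carry newer identifiers and Tor itself was not matched by symbol, so their status is unknown.

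Factors that act on ribosomal protein promoters were listed about as often as all tested genes. Of 9 promoter factors 3 were listed (33.3%, beside 28.0%), and Trf2, M1BP and Dref, which bind or serve promoters of this class, were not. Putzig, GFZF and Cfdp1 were not matched by symbol, so their status is unknown. Taf1, a subunit of the general factor TFIID, was lower at -0.21 (SE 0.07), the nuclear receptor gene Hr78 lower at -0.33, and NELF-B, of a polymerase pausing complex, higher at 0.34 per the authors' deposited table. In the Myc network, with 5 genes, Myc, a driver of ribosome production, was higher at 0.48 (SE 0.15, DESeq2 adjusted p 0.00954) and Mondo lower at -0.39 (SE 0.10) per the authors' deposited table.

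Genes that respond when ribosomal proteins are out of balance were higher where listed, 5 of the 9 matched with 0 lower. Of all tested genes 13.9% were higher and 14.2% lower. The list held 13 symbols, and ATF4, PERK, GCN2 and Gadd34 were not matched, so their status is unknown. Xrp1, a transcription factor that rises in Minute cells, had a log2 ratio of 0.82 (SE 0.10, DESeq2 adjusted p 1.15e-13) per the authors' deposited table, 1.76-fold. Its partner gene Irbp18 had 0.33 (SE 0.12, adjusted p 0.0274) per the authors' deposited table. p53 and the JNK phosphatase gene puc had 0.65 and 0.53, and the cytokine gene upd3 had 3.30 (SE 0.68) at a mean of 23.3 per the authors' deposited table. All of these genes also respond to other kinds of stress. The list was written with earlier results of these data known.

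**Figure D5:**
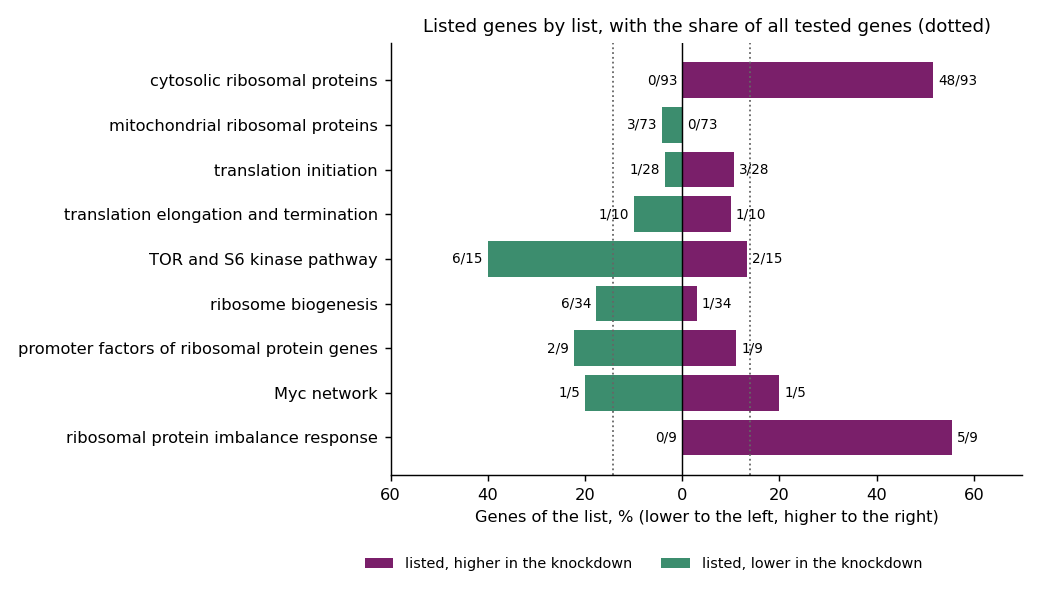
Share of each gene list that was listed as higher (right) or lower (left) in the knockdown, with counts out of the genes matched; dotted lines mark the 13.9% higher and 14.2% lower of all tested genes. Cytosolic ribosomal proteins reach 48 of 93 on the right and 0 on the left, and mitochondrial ones 0 and 3 of 73.

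Some markers of neuroblasts and of other cell types were also listed, and their counts stand beside 13.9% of all tested genes higher and 14.2% lower. Whether the sort held each of these cell types was not tested. Of 6 neuroblast markers, wor was listed, higher at a log2 ratio of 0.61 (SE 0.23), and dpn, ase, mira, insc and klu were not. Of 6 neuron markers 3 were lower, Rbp9, fne and Syt1 at -2.71, -0.87 and -0.60, and 3 of 4 glia markers were higher, alrm, gcm and repo at 1.94, 0.72 and 0.56 per the authors' deposited table. Of 5 blood cell markers 4 were lower, from -0.80 for Hml to -4.77 for PPO1 per the authors' deposited table. Of 4 fat body markers 1 was listed, apolpp, higher at 1.14, and Fbp1, Lsp1beta and Lsp2 were not. Of 4 muscle markers 1 was listed, Act57B, higher at 0.98 per the authors' deposited table. Mhc, Mlc2 and wupA were not listed, and 1 of the muscle markers carries a newer identifier. Levels of markers that were not listed are unknown, and the part of these cells in the ribosomal protein ratios was not tested. In such bulk samples a change in the number of cells of a type and a change in RNA per cell cannot be told apart.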

How the data were processed

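The submitters' processing notes name DESeq2, HTSeq 0.6.1, SAMtools 0.1.19, STAR 2.3.0e and FastQC 0.11.2, with build dm6. How reads were counted, by which annotation, and whether ratios were shrunken is not given in the sources used here. Per the file headers, the authors deposited a signal (the mean normalized count of all libraries), a log2 ratio of control over knockdown, its p-value, raw and adjusted, and as scores its standard error and Wald statistic. The deposited table was decoded from UTF-7. It held 1 comparison of 3 wild type with 3 dom knockdown libraries and no values per library, so read depth is unknown and precision rests on the deposited standard errors.

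Computed here with Python 3.11.15 and pandas 2.3.3 were signs (turned), folds, 95% normal intervals, and implied group levels, which assume unshrunken ratios. The number of tested genes, 11859, was recovered from ranks of p and adjusted p and the procedure was tested on simulated data. Symbols matched 3264 of 3326 identifiers, and positions came from Ensembl release 115, whose assembly has dm6 coordinates. Of the context list symbols 13 were not matched and are left out of counts. The pathway lists, markers and members were chosen with earlier results of these data known. By the rule for named genes any listed member could be named, with full values for copies of multi-gene proteins, the extremes and smallest adjusted p of each subunit and the stalk and ubiquitin fusion genes, and of each other list up to 5 listed genes with the smallest adjusted p. Outside that rule, pit, Polr1A, Nup37 and the genes beside the rare copies were chosen after their values were seen. The limma fit planned for values per library could not be run. Motif searches were not made. Values of some members are included in counts and medians but are not reported here by name.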

Additional observations from a re-analysis of the deposited data

How the results depend on the processing

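The count of 48 higher members depended on the centring of the ratios. With all log2 ratios lowered by 0.1, 27 passed, and with all raised by 0.1 the 48 listed genes still did, although members outside the table could not be added. It was 32 at an adjusted p below 0.01, 45 at a mean of at least 50, 47 without genes named -like and 43 with at most 10% of exon bases shared. The count of lower members was 0 under each of these settings. That outcome was fixed in advance, because all 48 listed members were higher by more than 0.1 and no other member could enter. Because the authors' DESeq2 table holds only genes past the threshold, the number of lower members at an unadjusted p under 0.05 is unknown. Subunit medians moved by less than the median error of a gene under all 4 alternatives, between 0.34 and 0.41. With standard errors added, the interval was 2.46 to 5.69 for RpL37-2 minus RpL37-1 and 1.22 to 4.31 for RpL22-like minus RpL22. Both intervals leave out the listing limit of the rare copies, which fixed part of each gap. The share without newer identifiers, added after seeing the data, was 54.5%. No paired analysis was possible because no value of a single library was at hand. For the same reason leaving out each library and another normalization were not run. Each ratio thus has no check per library.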
